A study of Homo sapiens with 6 samples.

Results

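Genes of DNA replication licensing and of the replication fork were followed in RL cells given the kinase inhibitor LY317615. The group holds 59 genes taken by name, from the origin recognition complex to the fork polymerases and the E2F factors, and all 59 were measured among the 18417 genes tested. RL is a human lymphoma cell line of B-cell origin that carries the t(14;18) translocation. LY317615 (enzastaurin) was made as an inhibitor of protein kinase C beta. RNA was profiled on Affymetrix Gene 1.0 ST arrays: 3 of LY317615-treated RL cells and 3 of untreated RL cells, all labelled 48 h. The labels give a dose of 2.5 mM, a unit that could not be checked here, and name no vehicle for the untreated cells. Both groups are the same line in the same medium, so the arrays describe RL and no other lymphoma. The replicates are described as independent but not tied to separate cultures, so each p-value reflects only how these arrays vary, and some of that may be technical.

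Origins of replication are licensed in G1, when the origin recognition complex, CDC6 and CDT1 load the ring-shaped MCM2-7 helicase onto DNA. Geminin, the product of GMNN, blocks CDT1 after S phase begins, and the kinases CDC7-DBF4 and cyclin E-CDK2 fire the licensed origins. CDC45 and the GINS complex then turn MCM2-7 into the active helicase, and polymerases alpha, delta and epsilon copy the strands with the sliding clamp PCNA and its loader RFC. Many of these genes are transcribed under E2F factors around the G1/S boundary, so their RNA is commonly read as a mark of cells preparing for or in S phase.

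After LY317615, RNA for 5 of the 6 MCM2-7 helicase genes and for several origin recognition and polymerase subunits was lower. RNA for the loaders CDC6 and CDT1 and for the loading inhibitor GMNN did not pass the test in either direction. MCM5, a helicase subunit, was 2.06-fold lower, MCM6 1.98-fold lower and ORC3, an origin recognition subunit, 1.96-fold lower. E2F7, an atypical E2F that represses other E2F targets, was the only member called higher in the limma fit of all 6 arrays on the deposited scale, by a log2 fold change of 0.54 ± 0.15 (SE). Of the 59 genes, 25 fell, 1 rose and 33 were not called (limma, adjusted p below 0.05, with the Benjamini-Hochberg correction made over the whole array). In bulk RNA, fewer cells in S phase and less replication RNA per cell cannot be told apart. The background over all genes was 21.4% lower and 14.2% higher, against 42.4% and 1.69% of the members. The members' median log2 fold change was -0.27, and that of all genes was 0.02. Without LY317615 replicate 3, 21 members were called lower (19.0% of all genes) and 5 higher (11.5% of all genes), and the median was -0.17. Cyclic loess is a scaling meant to reduce trends with intensity, and how far it did so here was not measured. After it, the calls were 19 lower (17.8% of all genes) and 4 higher (12.9% of all genes).

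The members had bright probe sets, and brightness moved with the fold changes of all genes. Over 5 equal bins of genes from dim to bright, 32 members lay in the brightest bin and 24 in the next. In the brightest bin 17 members, or 53.1%, were called lower, and so were 47.6% of all genes there. In the next bin 7 members, or 29.2%, were called lower, against 37.0% of all genes there. The median log2 fold changes were -0.30 for members and -0.21 for all genes in the brightest bin, and -0.25 and -0.14 in the next. The share of members called lower was thus near that of all genes of like brightness, and above the background of the whole array. The part of intensity in the members' changes was not tested.

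In these genes LY317615 replicate 3 lay lower than its 2 fellow arrays. The mean log2 intensity over the 59 genes was 8.79, 8.66 and 8.43 on LY317615 replicates 1, 2 and 3, against 8.89, 8.91 and 8.85 on the untreated arrays. Replicate 3 had the lowest value of the 3 treated arrays for 57 of the 59 genes (96.6%, against 41.8% of all genes), the exceptions being ORC5 and RPA3. It had the lowest value of all 6 arrays for 51 genes (86.4%, against 29.0% of all genes). Replicate 1 was the highest treated array for 53 genes. The median difference from the untreated mean was -0.11 on replicate 1, -0.23 on replicate 2 and -0.45 on replicate 3, so all 3 treated arrays lay on the same side of 0 by different amounts. The plot of the genes under 4 settings shows each gene with and without that array.

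**Figure D1:**
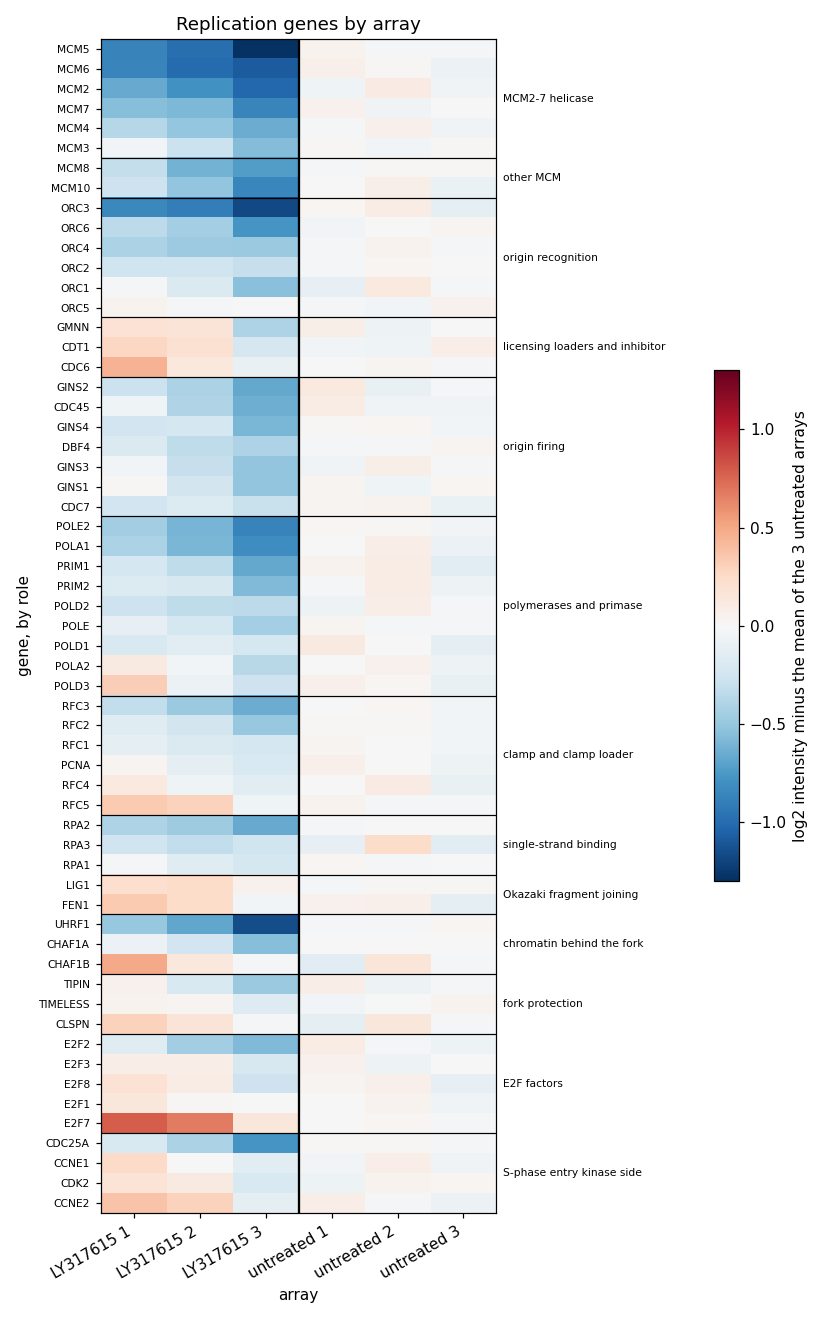
Log2 intensity of the 59 replication genes on each array, minus the mean of the 3 untreated arrays, with rows grouped by role and blue for lower values. The MCM2-7 rows are blue on all 3 treated arrays except MCM3 on replicate 1, LY317615 replicate 3 is the bluest column, and E2F7 is red on replicates 1 and 2.

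Of the 6 MCM2-7 helicase genes 5 fell (83.3%, against 21.4% of all genes and 47.6% of those in the brightest bin). The median log2 fold change of the 6 was -0.74, and 5 were also called without LY317615 replicate 3 (median -0.64) and after cyclic loess (median -0.61). MCM5 had log2 intensities of 8.91, 8.80 and 8.49 on the LY317615 arrays, against 9.82, 9.75 and 9.75 on the untreated arrays. The groups stood far apart, with the highest treated array well below the lowest untreated array, and MCM5 changed by -1.04 ± 0.11 on the log2 scale (SE; limma, adjusted p = 0.000205). MCM6 read 10.00, 9.86 and 9.78 on the LY317615 arrays and 10.93, 10.88 and 10.79 on the untreated arrays. Its treated arrays were the tightest of the helicase genes, and MCM6 changed by -0.98 ± 0.08 on the log2 scale (SE; limma, adjusted p = 9.48e-05), the smallest adjusted p of the 59 genes.

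MCM2 had log2 intensities of 9.38, 9.25 and 9.01 with LY317615 and 9.98, 10.14 and 9.99 without it, a log2 fold change of -0.82 ± 0.10 (SE). MCM7 read 10.04, 10.01 and 9.73 with LY317615 and 10.64, 10.55 and 10.58 without it, a change of -0.66 ± 0.10 (SE). MCM4 read 9.96, 9.82 and 9.68 with LY317615 and 10.30, 10.40 and 10.28 without it, a change of -0.51 ± 0.09 (SE). In all 3 genes every treated array lay below every untreated array, and replicate 3 was the lowest. These calls had adjusted p-values of 0.00053 for MCM2, 0.000988 for MCM7 and 0.00286 for MCM4.

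MCM3, the remaining subunit, read 10.04, 9.79 and 9.51 on the LY317615 arrays and 10.09, 10.04 and 10.09 on the untreated arrays. Replicate 1 reached the untreated range, and the log2 fold change of -0.29 ± 0.12 (SE) had an adjusted p of 0.0942 in limma. Over the 13 alternative settings that adjusted p ranged from 0.0179 to 0.312. Within each array the log2 ratio of MCM5 to MCM3 was -1.13, -0.996 and -1.01 with LY317615 and -0.27, -0.29 and -0.35 without it. The level of the ratio has no meaning between probe sets, and its difference of -0.75 describes an unequal change of the 2 probe set signals. That ratio varied little among the treated arrays (SD 0.075, n = 3). The log2 ratio of MCM6 to MCM3 varied more there (SD 0.16, n = 3). It was -0.04, 0.07 and 0.27 with LY317615 and 0.84, 0.84 and 0.69 without it. LY317615 replicate 3 was the lowest treated array for all of these genes. The pairs were chosen after the values were seen, so no test is given.

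**Figure D2:**
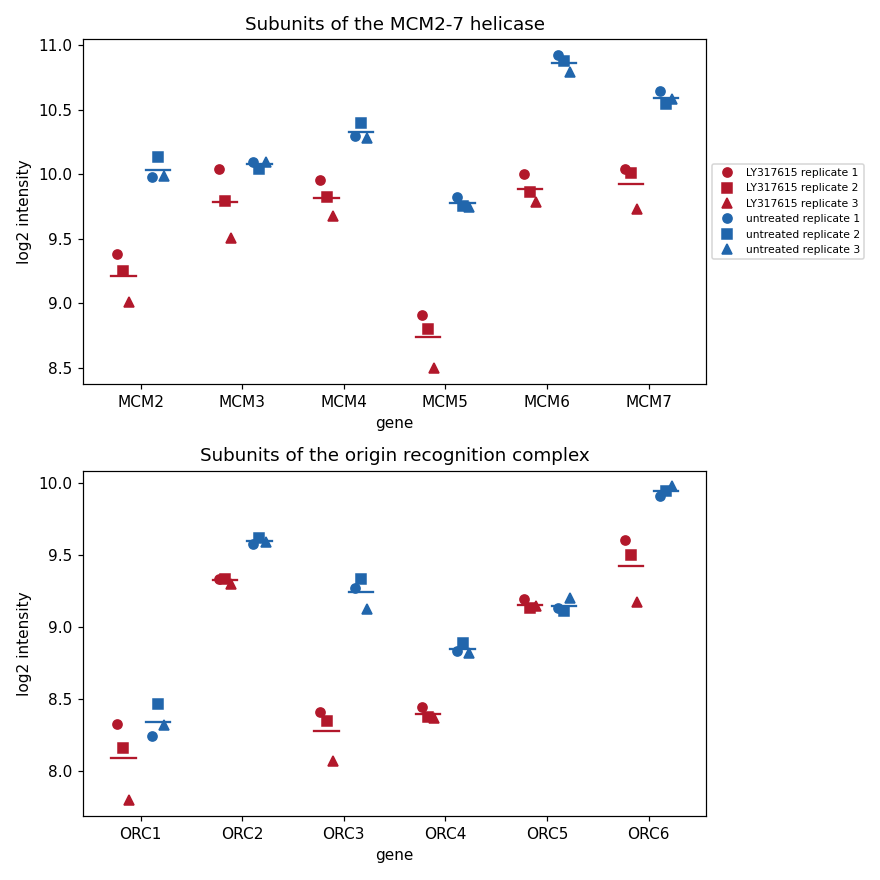
Log2 intensity of the 6 MCM2-7 genes (top) and of the 6 origin recognition genes (bottom) on each array, LY317615 in red left of untreated in blue, with marker shapes for replicates and lines for group means. The groups are apart for 5 MCM genes and for ORC2, ORC3, ORC4 and ORC6, and they overlap for MCM3, ORC1 and ORC5.

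The other MCM-named members fell as well. MCM8, which forms a helicase with MCM9 that acts in homologous recombination, read 9.84, 9.53 and 9.42 with LY317615 and 10.12, 10.16 and 10.16 without it, a log2 fold change of -0.55 ± 0.11 (SE; limma, adjusted p = 0.00475). MCM10, a fork factor that helps activate the helicase, read 8.71, 8.47 and 8.13 with LY317615 and 8.99, 9.06 and 8.90 without it, a change of -0.55 ± 0.13 (SE, adjusted p = 0.0131 in limma). The groups did not overlap for either gene. Without LY317615 replicate 3 the changes were -0.46 for MCM8 and -0.39 for MCM10, and both were still called.

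Promoter sequences of RefSeq (GRCh38.p14) cover 50 of the 59 genes, with 250 bases before and 50 after each start site. They were searched on both strands for the E2F-type motifs TTTCGCGC, TTTGGCGC, TTTCCCGC and TTTGCCGC, for the NF-Y box CCAAT and for TTTGAA, the cell-cycle homology region. An E2F-type motif stood in at least 1 promoter window of 27 of the 50 genes (54.0%), against 5.51% of the 14239 tested genes with a promoter and 3.99% of all 27305 genes in the table. CCAAT stood in 62.0% of the members and 42.2% of the tested genes, and TTTGAA in 2 of the 50 members and 15.7% of the tested genes. Among the members, the E2F-type motif was found in 13 of 21 genes called lower, in 14 of 28 not called and not in E2F7. The motif was thus present both in genes that fell and in genes that were not called.

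The 160 bases before the start site are shown for 4 genes that fell, for 2 genes with an E2F-type motif that were not called (CDT1 and PCNA) and for E2F7. Capitals mark E2F-type motifs and CCAAT boxes in either direction (ATTGG on the strand shown). Where RefSeq gives several start sites, as for MCM7, UHRF1 and PCNA, a window with the most E2F-type matches is shown.
MCM6, chr2:135876444-135876603, minus strand: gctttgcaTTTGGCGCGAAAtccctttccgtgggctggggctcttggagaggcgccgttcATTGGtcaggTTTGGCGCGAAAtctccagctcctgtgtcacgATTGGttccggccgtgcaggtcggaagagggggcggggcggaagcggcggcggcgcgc
MCM7, chr7:100101398-100101557, minus strand: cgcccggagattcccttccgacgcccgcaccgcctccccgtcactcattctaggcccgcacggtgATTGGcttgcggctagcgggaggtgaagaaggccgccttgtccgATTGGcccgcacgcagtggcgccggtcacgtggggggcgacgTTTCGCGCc
ORC3, chr6:87589975-87590134, plus strand: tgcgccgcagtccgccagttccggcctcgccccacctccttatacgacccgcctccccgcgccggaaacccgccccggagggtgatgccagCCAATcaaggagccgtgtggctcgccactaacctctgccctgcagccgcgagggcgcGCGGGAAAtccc
UHRF1, chr19:4909341-4909500, plus strand: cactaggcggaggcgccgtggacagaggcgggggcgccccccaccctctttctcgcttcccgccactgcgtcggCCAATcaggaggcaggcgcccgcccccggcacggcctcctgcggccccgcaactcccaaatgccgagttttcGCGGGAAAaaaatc
CDT1, chr16:88803629-88803788, plus strand: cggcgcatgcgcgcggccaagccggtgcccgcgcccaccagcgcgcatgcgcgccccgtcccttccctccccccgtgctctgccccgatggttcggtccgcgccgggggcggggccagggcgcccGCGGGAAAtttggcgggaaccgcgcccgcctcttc
PCNA, chr20:5126623-5126782, minus strand: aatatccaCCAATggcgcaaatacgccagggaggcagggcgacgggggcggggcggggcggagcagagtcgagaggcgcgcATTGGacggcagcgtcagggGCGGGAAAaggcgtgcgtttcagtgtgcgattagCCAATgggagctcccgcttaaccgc
E2F7, chr12:77065570-77065729, minus strand: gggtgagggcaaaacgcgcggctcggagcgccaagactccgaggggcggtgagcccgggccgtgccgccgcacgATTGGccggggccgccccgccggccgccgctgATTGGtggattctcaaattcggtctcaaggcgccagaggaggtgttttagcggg
MCM6 carries 2 copies of a run in which TTTGGCGC overlaps TTTCGCGC on the opposite strand, at positions -152 and -90 from the start site. MCM7 has TTTCGCGC at position -9, and ORC3 and UHRF1 have TTTCCCGC on the opposite strand at -12 and -14. CDT1 and PCNA hold the same motif on the opposite strand at -35 and -59. A match describes the letters and not a bound site.

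Of the 6 origin recognition genes 4 fell (66.7%, against 21.4% of all genes), and the subunits changed by different amounts. In the 2 brightest bins, 37.0% and 47.6% of all genes were called lower. ORC3 read 8.41, 8.35 and 8.07 with LY317615 and 9.27, 9.34 and 9.13 without it, a log2 fold change of -0.97 ± 0.11 (SE; limma, adjusted p = 0.000247). ORC6, the smallest subunit of the complex, read 9.60, 9.50 and 9.18 with LY317615 and 9.91, 9.95 and 9.98 without it, a change of -0.52 ± 0.11 (SE, adjusted p = 0.0068 in limma). In both genes all treated arrays lay below all untreated arrays. ORC4 changed by -0.45 ± 0.07 and ORC2 by -0.27 ± 0.07 (SE), and for these 2 genes LY317615 replicate 3 lay close to the other treated arrays: ORC4 read 8.44, 8.38 and 8.37 and ORC2 read 9.33, 9.34 and 9.30 with LY317615. The untreated values were 8.83, 8.89 and 8.82 for ORC4 and 9.58, 9.62 and 9.59 for ORC2.

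ORC1, the subunit whose level cycles with the cell cycle in human cells, and ORC5 were not called. ORC1 read 8.32, 8.16 and 7.80 with LY317615 and 8.24, 8.47 and 8.32 without it, and its change of -0.25 had a 95% interval of -0.55 to 0.05. ORC5 read 9.19, 9.13 and 9.14 with LY317615 and 9.13, 9.11 and 9.20 without it, a change of 0.01 with an interval of -0.15 to 0.17. The groups overlapped in both. The log2 ratio of ORC3 to ORC5 within arrays was -0.79, -0.78 and -1.07 with LY317615 and 0.14, 0.22 and -0.07 without it, a difference of -0.98 for a pair chosen after its values were seen. The ORC2 call was lost without untreated replicate 2, without untreated replicate 3 and after cyclic loess, where its change was -0.12.

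Unlike 4 of the origin recognition genes, the loaders CDC6 and CDT1 and the loading inhibitor GMNN were not called. CDC6, the loader ATPase, read 9.98, 9.66 and 9.42 with LY317615 and 9.51, 9.55 and 9.49 without it. CDT1, its partner in loading, read 8.19, 8.12 and 7.71 with LY317615 and 7.90, 7.87 and 8.01 without it. GMNN read 8.27, 8.25 and 7.68 with LY317615 and 8.15, 8.01 and 8.07 without it. In all 3 genes LY317615 replicates 1 and 2 lay above every untreated array and replicate 3 lay below every untreated array. The log2 fold changes were 0.17 for CDC6 (95% interval -0.12 to 0.46), 0.08 for CDT1 (-0.20 to 0.37) and -0.01 for GMNN (-0.35 to 0.32). Without replicate 3 they were 0.30, 0.23 and 0.18, with adjusted p-values of 0.0636, 0.0592 and 0.108 in limma, and 0 of the 3 was called.

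Of the 7 origin firing genes 4 fell (57.1%, against 21.4% of all genes), each by less than 0.5 on the log2 scale. From the middle bin to the brightest, 15.4%, 37.0% and 47.6% of all genes were called lower. GINS2 changed by -0.45 ± 0.11 and GINS4 by -0.35 ± 0.10 (SE), while the other GINS subunits, GINS1 and GINS3, had estimates of -0.24 and -0.28 that did not pass. DBF4, the regulatory subunit of the CDC7 kinase, changed by -0.31 ± 0.08, and CDC7 by -0.24 ± 0.08 (SE). CDC45, which joins GINS in the active helicase, read 8.56, 8.22 and 7.97 with LY317615 and 8.70, 8.57 and 8.56 without it. Its arrays just failed to overlap, and its estimate of -0.36 had an adjusted p of 0.0657 in limma. CDC45 was called lower under 5 of the 13 alternative settings, with an adjusted p as low as 0.0097 without LY317615 replicate 1. The CDC7 call was lost without LY317615 replicate 3 (adjusted p = 0.0716 in limma), without LY317615 replicate 1, without any 1 of the untreated arrays and after cyclic loess. The GINS4 call was lost without any 1 of the untreated arrays, and that of DBF4 without untreated replicate 3.

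Of the 9 polymerase and primase genes 4 fell (44.4%, against 21.4% of all genes). Among all genes of the 2 brightest bins, 37.0% and 47.6% were called lower. POLE2, the second subunit of polymerase epsilon, read 7.48, 7.32 and 7.06 with LY317615 and 7.95, 7.95 and 7.90 without it, a log2 fold change of -0.64 ± 0.11 (SE; limma, adjusted p = 0.00214). POLA1, the catalytic subunit of polymerase alpha, read 8.68, 8.50 and 8.29 with LY317615 and 9.09, 9.18 and 9.02 without it, a change of -0.61 ± 0.11 (SE, adjusted p = 0.00276 in limma). The groups did not overlap in either gene. PRIM1, the catalytic primase subunit, changed by -0.41 ± 0.12 and POLD2, an accessory subunit of polymerase delta, by -0.31 ± 0.08 (SE). The PRIM1 call was lost without LY317615 replicate 3 (adjusted p = 0.0617 in limma), without untreated replicate 1 or 2 and after cyclic loess. That of POLD2 was lost without untreated replicate 2 and after cyclic loess.

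Partners of these subunits were not called. POLA2, the B subunit of polymerase alpha, read 8.93, 8.78 and 8.45 with LY317615 and 8.81, 8.87 and 8.75 without it, an estimate of -0.09 (95% interval -0.36 to 0.17). The log2 ratio of POLA1 to POLA2 was -0.24, -0.27 and -0.17 with LY317615 and 0.28, 0.31 and 0.27 without it, a difference of -0.51 that was alike on all treated arrays and was picked out after the values were seen. POLE, the catalytic subunit of polymerase epsilon, had an estimate of -0.26 (adjusted p = 0.0589 in limma) and PRIM2, the large primase subunit, one of -0.32 (adjusted p = 0.0541 in limma). Under the 13 alternative settings POLE was called lower in 4 and PRIM2 in 6. POLD1, the catalytic subunit of polymerase delta, stood at -0.19 and POLD3 at -0.01.

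Of the clamp and clamp loader genes 2 of 6 fell (33.3%, against 21.4% of all genes). That share was below the 37.0% and 47.6% of all genes in the 2 brightest bins. RFC3 changed by -0.48 ± 0.09 and RFC2 by -0.30 ± 0.10 (SE), both small subunits of the loader. PCNA, the clamp itself, read 11.25, 11.08 and 11.02 with LY317615 and 11.28, 11.21 and 11.14 without it. Its groups overlapped, and the estimate of -0.10 had a 95% interval of -0.29 to 0.10. RFC1, the large loader subunit, stood at -0.18 and RFC4 at -0.02, neither called. RFC5 read 8.45, 8.40 and 8.05 with LY317615 and 8.15, 8.09 and 8.09 without it, an estimate of 0.19 that was not called on the deposited scale. It was called higher without LY317615 replicate 3 (0.32, adjusted p = 0.0133 in limma), with array weights (0.27, adjusted p = 0.0372) and after cyclic loess (0.32, adjusted p = 0.0264). The RFC2 call was lost without LY317615 replicate 2, without LY317615 replicate 3 (adjusted p = 0.0689 in limma), without any 1 of the untreated arrays and after cyclic loess.

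RPA2, a subunit of the protein that coats single-stranded DNA, read 8.41, 8.34 and 8.15 with LY317615 and 8.80, 8.82 and 8.82 without it. The groups did not overlap, and RPA2 changed by -0.51 ± 0.09 on the log2 scale (SE; limma, adjusted p = 0.00215). The other RPA subunits were not called, with estimates of -0.13 for RPA1 and -0.28 for RPA3. The nuclease gene FEN1 and the ligase gene LIG1, which mature Okazaki fragments, had estimates of 0.18 and 0.17 that were not called on the deposited scale. LIG1 read 7.09, 7.11 and 6.93 with LY317615 and 6.85, 6.89 and 6.89 without it, so all treated arrays were above all untreated arrays. Without LY317615 replicate 3 both were called higher, FEN1 by 0.29 (adjusted p = 0.0422 in limma) and LIG1 by 0.23 (adjusted p = 0.0389 in limma). With all 6 arrays FEN1 was also called higher after cyclic loess (0.33, adjusted p = 0.0264 in limma) and LIG1 with array weights (0.20, adjusted p = 0.0468 in limma).

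UHRF1, which brings maintenance DNA methylation to newly copied DNA, fell most among the genes of chromatin behind the fork. It read 9.44, 9.26 and 8.79 with LY317615 and 9.92, 9.92 and 9.96 without it, a log2 fold change of -0.77 ± 0.15 (SE; limma, adjusted p = 0.00419). The treated arrays were all lower and spread widely, and without LY317615 replicate 3 the change was -0.58 ± 0.08 (SE). A further, much dimmer UHRF1 probe set had an estimate of 0.17 and was not called. The subunits of the histone chaperone CAF-1 were not called: CHAF1A had an estimate of -0.29 and CHAF1B one of 0.21. The fork protection genes TIMELESS, TIPIN and CLSPN were not called, with estimates of -0.03, -0.21 and 0.15, and the dimmer probe set of CLSPN gave -0.12. CLSPN was called higher after cyclic loess (0.30, adjusted p = 0.0369 in limma), and TIPIN lower without LY317615 replicate 1 (-0.34, adjusted p = 0.049 in limma).

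**Figure D3:**
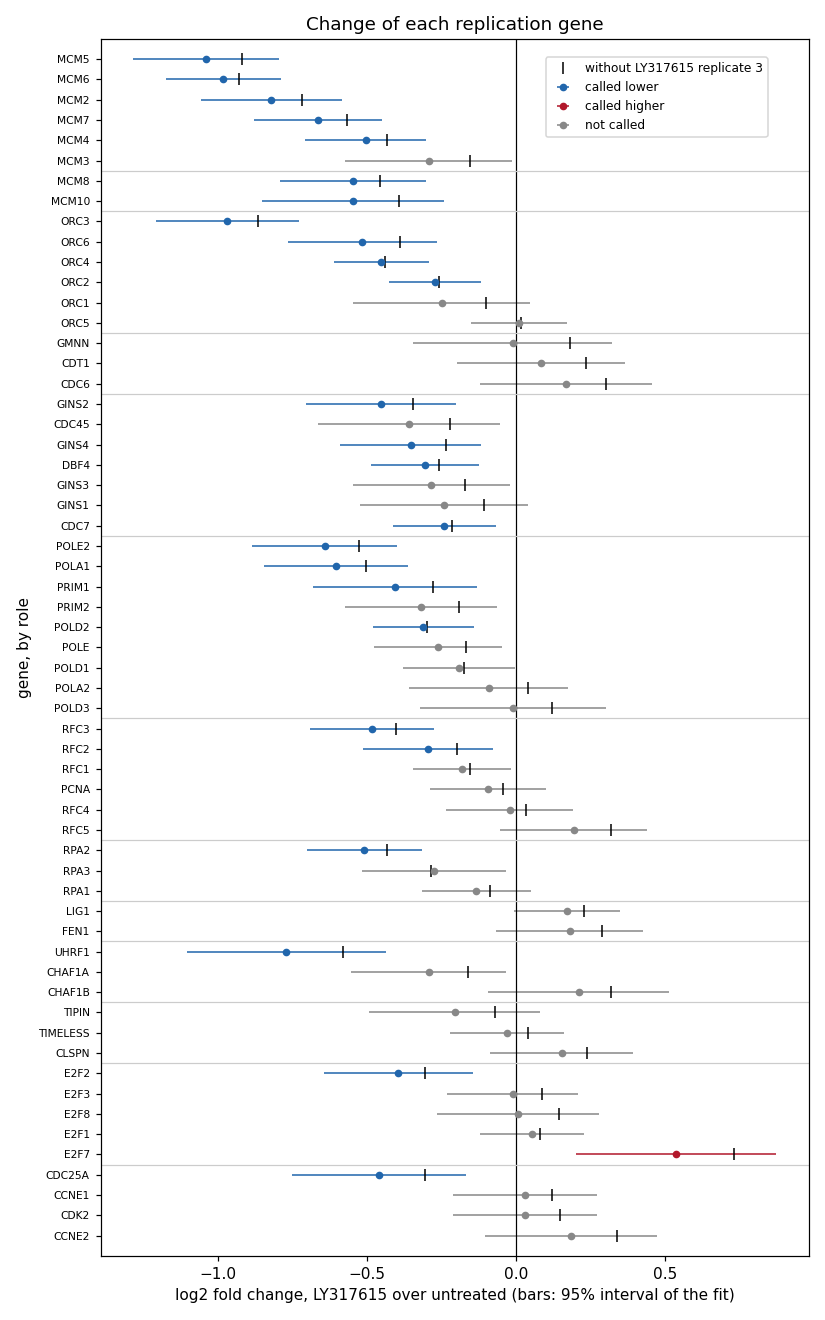
Log2 fold change, LY317615 over untreated, of each of the 59 genes by role, with 95% intervals of the limma fit and black ticks for the estimate without LY317615 replicate 3. Blue marks the 25 genes called lower and red E2F7, and most ticks lie to the right of their points.

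The E2F factors went different ways. E2F7 read 7.90, 7.78 and 7.26 with LY317615 and 7.10, 7.14 and 7.09 without it, a log2 fold change of 0.54 ± 0.15 (SE; limma, adjusted p = 0.0215). All treated arrays lay above all untreated arrays, but replicate 3 only slightly, and without it the change was 0.73 ± 0.07 (SE, adjusted p = 0.000794 in limma). The E2F7 call was lost without LY317615 replicate 1, without LY317615 replicate 2, without untreated replicate 1 and without untreated replicate 3, with adjusted p-values up to 0.0678. E2F8, the other atypical E2F, read 8.22, 8.14 and 7.77 with LY317615 and 8.07, 8.11 and 7.93 without it, an estimate of 0.01 (95% interval -0.27 to 0.28). The log2 ratio of E2F7 to E2F8 was -0.32, -0.35 and -0.51 with LY317615 and -0.97, -0.97 and -0.84 without it, a difference of 0.53 for a pair chosen after its values were seen.

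E2F2, one of the activator E2Fs, read 7.94, 7.65 and 7.53 with LY317615 and 8.20, 8.08 and 8.03 without it, and fell by 0.40 ± 0.11 on the log2 scale (SE, adjusted p = 0.0228 in limma). The groups did not overlap, but the call was lost without LY317615 replicate 2, without LY317615 replicate 3 (adjusted p = 0.0649 in limma), without untreated replicate 1 or 2 and after cyclic loess. The activators E2F1 and E2F3 had estimates of 0.05 (95% interval -0.12 to 0.23) and -0.01 (-0.23 to 0.21). Of the genes of S-phase entry, CDC25A, the phosphatase that activates CDK2, fell by 0.46 ± 0.13 on the log2 scale (SE, adjusted p = 0.023 in limma). It read 9.45, 9.23 and 8.89 with LY317615 and 9.66, 9.66 and 9.63 without it, and its call was lost without any 1 of the untreated arrays and after cyclic loess. CCNE1, CCNE2 and CDK2, the cyclin E genes and their kinase, had estimates of 0.03, 0.18 and 0.03 and were not called. CCNE2 was called higher without LY317615 replicate 3 (0.34, adjusted p = 0.0179 in limma).

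Groups did not overlap, with LY317615 lower, in 32 members (54.2%, against a background of 27.8% of all genes). They did not overlap with LY317615 higher in 2 members, E2F7 and LIG1 (3.39%, against 22.0% of all genes). Of the 25 genes called lower, 16 were called lower under all 13 alternative settings at an adjusted p of 0.05. These were MCM2, MCM4, MCM5, MCM6, MCM7, MCM8, MCM10, ORC3, ORC4, ORC6, GINS2, POLA1, POLE2, RFC3, RPA2 and UHRF1. Of the 25, 21 were also called lower without LY317615 replicate 3. The exceptions were CDC7, PRIM1, RFC2 and E2F2. Of the 33 genes not called, 11 were called lower under at least 1 of the 13 settings (MCM3, CDC45, GINS1, GINS3, PRIM2, POLD1, POLE, RFC1, RPA3, CHAF1A and TIPIN) and 5 were called higher (RFC5, FEN1, LIG1, CCNE2 and CLSPN). Calls kept, lost or gained across settings were not counted over all genes. Whether the members were more or less stable than other genes therefore cannot be said.

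**Figure D4:**
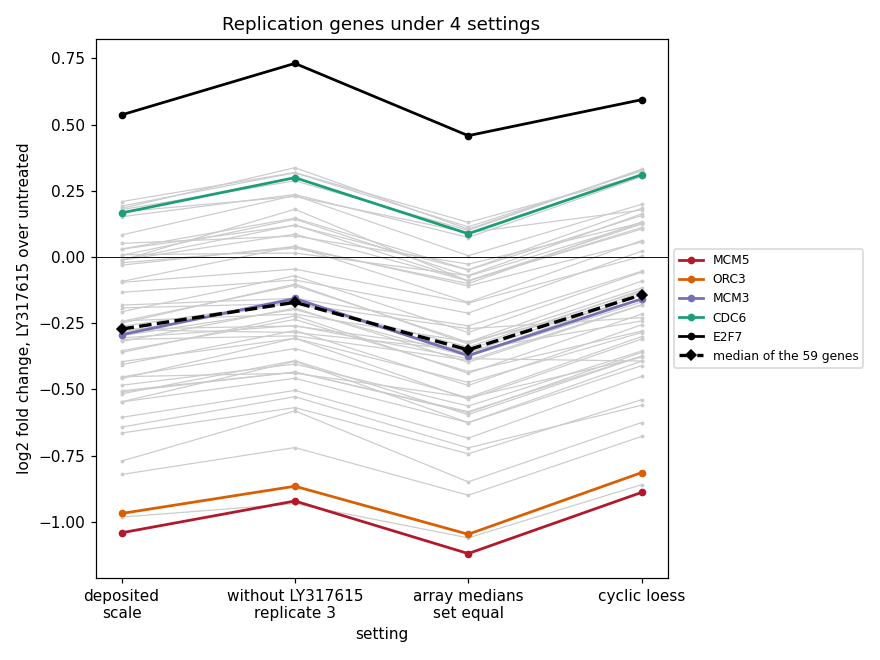
Log2 fold change, LY317615 over untreated, of the 59 genes (grey lines) on the deposited scale, without LY317615 replicate 3, with equal array medians and after cyclic loess. The median (dashed) is -0.27, -0.17, -0.35 and -0.14, MCM5 and ORC3 stay lowest among the coloured genes, and E2F7 stays above 0.

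Other genes of the same pathway, from lists written out by role, were read from the same fit. Their median untreated percentiles were 81.0 to 87.4, so they too were bright, and among all genes 37.0% and 47.6% were called lower in the 2 brightest bins. Of 12 genes for further E2F factors, their partners, the pocket proteins and LIN subunits of the MuvB core, 9 fell (75.0%, against 21.4% of all genes). Of the 12, 0 rose (14.2% of all genes), and the median log2 fold change was -0.56. TFDP2, a dimerisation partner of E2F factors, read 6.64, 6.60 and 6.61 with LY317615 and 8.04, 8.02 and 7.83 without it, a log2 fold change of -1.35 ± 0.08 (SE; limma, adjusted p = 2.04e-05). Replicate 3 was in the middle of the treated arrays here. LIN37 and LIN9, subunits of the MuvB core that joins E2F and pocket proteins in the DREAM complex, changed by -0.93 ± 0.10 and -0.68 ± 0.09, and the pocket protein gene RBL2 by -0.55 ± 0.07 (SE). RB1 and RBL1, the other pocket protein genes, had estimates of -0.08 and -0.09 and were not called.

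Genes listed for the destruction of licensing factors and other cell-cycle proteins, among them ligase parts and regulators, were called in both directions. Their shares were not far from those of the whole array. Of 10 measured, 3 fell (30%, against 21.4% of all genes) and 2 rose (20%, against 14.2% of all genes), with a median of -0.14. Without LY317615 replicate 3 the counts were 2 lower (19.0% of all genes) and 3 higher (11.5% of all genes) and the median -0.07. SKP2, an F-box protein of a ubiquitin ligase that targets CDT1 and ORC1, read 8.86, 8.80 and 8.74 with LY317615 and 7.98, 7.85 and 7.88 without it. It rose 1.86-fold, by 0.90 ± 0.08 on the log2 scale (SE, adjusted p = 8.36e-05 in limma). Its cofactor CKS1B changed by -0.73 ± 0.09 (SE). CUL4A, the scaffold of the ligase that destroys CDT1 during replication, read 9.05, 9.01 and 8.94 with LY317615 and 10.10, 10.05 and 10.00 without it, a change of -1.05 ± 0.07 (SE, adjusted p = 3.73e-05 in limma). Its paralogue CUL4B rose by 0.30 ± 0.08 (SE, adjusted p = 0.0147 in limma), a call lost with the array medians set equal. The treated arrays were close together in SKP2 and CUL4A.

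Of 28 further fork and origin genes, 9 fell (32.1%, against 21.4% of all genes) and 3 rose (10.7%, against 14.2% of all genes), with a median of -0.16. Without LY317615 replicate 3 the counts were 8 lower (19.0% of all genes) and 7 higher (11.5% of all genes) and the median -0.05. DNMT1, the maintenance methyltransferase that UHRF1 recruits, changed by -0.58 ± 0.08, MTBP, a partner of the origin firing factor Treslin, by -0.73 ± 0.12, and the polymerase epsilon subunit gene POLE4 by -0.52 ± 0.09 (SE). LRWD1, which binds and stabilises the origin recognition complex, rose by 0.70 ± 0.11 (SE, adjusted p = 0.00135 in limma). It read 8.23, 8.34 and 7.97 with LY317615 and 7.55, 7.37 and 7.53 without it, so its direction was opposite to that of the origin recognition subunits that were called. Of 8 measured S-phase checkpoint genes, 4 fell (50%, against 21.4% of all genes) and 0 rose: the kinase genes WEE1 (-0.72 ± 0.08) and ATR (-0.35 ± 0.07), and the clamp and clamp loader genes RAD1 (-0.43 ± 0.11) and RAD17 (-0.25 ± 0.08, SE). RAD1 was lost after cyclic loess and without untreated replicate 1 or 2, and RAD17 under 7 of the 13 settings.

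Of 8 general proliferation markers, 2 fell (25.0%, near the 21.4% of all genes) and 0 rose, with a median of -0.08. The mitotic kinase genes BUB1 and CDK1 changed by -0.34 ± 0.10 and -0.28 ± 0.09 (SE). Those not called were MKI67, AURKA and CCNA2, with estimates of -0.24, -0.10 and -0.06, and TOP2A, BIRC5 and CCNB1, with estimates of 0.11, 0.16 and 0.19. Without LY317615 replicate 3 the BUB1 and CDK1 calls were lost, CCNB1 was called higher (0.23, adjusted p = 0.0409 in limma) and the median was 0.004. After cyclic loess 0 were called lower (17.8% of all genes), and CCNB1 and BIRC5 were called higher (12.9% of all genes).

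The arrays carried the labelled cell type. The 5 measured B-cell markers (MS4A1, CD79A, CD79B, PAX5 and CD22) lay between the percentiles 95.2 and 98.9 of untreated intensity. Of these, 4 fell (all but CD79B), beside 21.4% of all genes and 47.6% of those in the brightest bin. The summed linear intensity of the 5 was 6651 to 7325 on the LY317615 arrays, against 9579 to 10070 on the untreated arrays. T-cell and myeloid markers lay between percentiles 3.72 and 30.5, with 1 of 4 and 2 of 4 called higher (14.2% of all genes). Their summed linear intensities were 111 to 130 and 116 to 135 on the LY317615 arrays, against 94.1 to 100 and 91.7 to 97.7 on the untreated arrays. Among epithelial and fibroblast markers, 1 of 3 fell (21.4% of all genes) and 1 of 3 rose (14.2% of all genes). The epithelial markers lay between percentiles 9.09 and 59.4 and the fibroblast markers between 35.7 and 48.9. Their summed linear intensities were 172 to 223 and 164 to 207 on the LY317615 arrays. On the untreated arrays they were 212 to 223 and 147 to 173. The part of the signals of these other cell types in the replication results was not tested.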

How the data were processed

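The authors deposited linear-scale intensities for 33297 probe sets. The submitters' processing notes name RMA, Affymetrix Expression Console and GCOS 1.4. Their order and roles, the step from RMA's log2 output to a linear scale and the genome build are not given. Log2 was taken with no added constant. Of the probe sets 19460 had exactly 1 gene symbol, and the brightest of a gene's probe sets stood for it. Each of the 18417 genes was tested with limma 3.58.1 in R 4.3.3 (lmFit and eBayes without a trend). P-values are two-sided, were adjusted by the method of Benjamini and Hochberg across the 18417 genes, and called a gene below 0.05. SE is that of the model. The code was tested on simulated data. No detection calls or scan dates were used, and the number of arrays limits the precision. Values per array were given for members called with a log2 change of at least 0.5 in size, for members called higher and for partners whose calls differed. Values per array of other members, and of TFDP2, SKP2, CUL4A and LRWD1, were added after they were seen. Of each further list up to 4 called genes of smallest adjusted p were named; RB1, RBL1 and the uncalled proliferation markers fall outside that rule. The members and all lists were chosen with earlier results of these data known. The 13 alternatives were the replicate block, 6 fits without 1 array, array weights, a variance prior with intensity trend, equal array medians, cyclic loess, no dimmest 30% of genes, and mean probe sets. Promoters came from RefSeq.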

Additional observations from a re-analysis of the deposited data

How the results depend on the processing

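The count of members called lower stayed between 17 and 34 under the 13 alternative settings at an adjusted p of 0.05, against 25 in the reported fit. The share of all genes called lower moved too, from 16.5% without untreated replicate 2 to 32.9% with the dimmest 30% left out. At an adjusted p of 0.01 the count of members was 14, and the share of all genes was not counted there. Leaving out 1 array gave 17 to 32 called lower and 0 to 5 called higher. The count called higher was 1 in the reported fit (14.2% of all genes) and 3 with array weights (15.1% of all genes). It was 4 after cyclic loess (12.9% of all genes) and 0 at an adjusted p of 0.01. Same-numbered treated and untreated arrays did not deviate together (correlations of -0.017, 0.093 and 0.066 for replicates 1, 2 and 3), so the numbers were not taken as pairs. With the replicate number as a block, 27 members were called lower (20.8% of all genes) and 1 higher (14.7% of all genes). The 25 lower calls of the reported fit were among the 27. The median log2 fold change was negative throughout, from -0.35 with the array medians set equal to -0.14 after cyclic loess, and no gene called in the reported fit changed direction. Setting the medians equal moved the median of all genes from 0.02 to -0.06. It raised the count called lower to 34 (26.4% of all genes), with 1 higher (8.27% of all genes). The cause of these differences was not tested. No detection calls bound the dimmer genes.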

Other observations

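MCM7 hosts the precursors of 3 microRNAs in RefSeq (GRCh38.p14): MIR106B, MIR93 and MIR25 lie inside the gene on chromosome 7, which spans 100092728 to 100101397. They were looked at after the values of MCM7 were seen. The probe set of MIR106B read 5.18, 5.38 and 5.26 with LY317615 and 5.62, 5.84 and 5.54 without it, a log2 fold change of -0.39 ± 0.10 (SE; limma, adjusted p = 0.0145), a call lost without untreated replicate 2 (adjusted p = 0.053 in limma). That of MIR93 read 5.27, 5.15 and 5.27 with LY317615 and 5.35, 5.64 and 5.42 without it, an estimate of -0.23 (adjusted p = 0.0802 in limma). That of MIR25 read 6.89, 6.66 and 6.94 with LY317615 and 6.98, 6.74 and 6.83 without it, an estimate of -0.02 (95% interval -0.25 to 0.21). These probe sets lay between percentiles 36.8 and 56.4 of untreated intensity, and which RNA of the locus each one reads was not tested. Replicate 3, the lowest treated array for MCM7, was not the lowest for any of the 3. The mature 5p strands of the first 2 share a seed, bases 2 to 8 in capitals, and the 3p strand of miR-25 has another.
miR-106b-5p: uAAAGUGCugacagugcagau
miR-93-5p: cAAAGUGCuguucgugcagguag
miR-25-3p: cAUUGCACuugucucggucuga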
